A study of Homo sapiens with 12 samples.

Results

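Transcripts of 10 genes whose products help RNA polymerase II through a gene were followed in MOLT4, a human cell line from a T-cell acute lymphoblastic leukemia (T-ALL). The 10 were taken by name from the deposited expression table, in which they make up 10 of 23619 genes: SUPT5H and SUPT4H1 (DSIF), SUPT6H (SPT6), SUPT16H and SSRP1 (FACT), PAF1, CTR9, LEO1 and CDC73 (the PAF1 complex) and ELL2. Cells were treated for 6 h with 0.1% DMSO, the vehicle and control, or with 1 of 3 compounds at 250 nM, namely SNS-032, its derivative THAL-SNS-032, or NVP-2, and each of the 4 groups had 3 libraries. SNS-032 is a cyclin-dependent kinase inhibitor whose targets include CDK9, THAL-SNS-032 joins SNS-032 to a thalidomide-type group that binds the ubiquitin ligase receptor cereblon, and NVP-2 is a CDK9 inhibitor. All groups come from 1 cell line. Nothing in the labels ties the libraries of a group to separate cultures, so a p-value here reflects library spread, which may be technical. Where 3 values are given together without names, they follow the order SNS-032, then THAL-SNS-032, then NVP-2.

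CDK9 is the kinase of P-TEFb, which releases paused polymerase. DSIF, the pair of SPT5 and SPT4, first holds polymerase near the start together with NELF, and phosphorylation of SPT5 by CDK9 turns DSIF into a factor that promotes elongation. SPT6 and FACT are histone chaperones that move nucleosomes out of and back behind the polymerase, the PAF1 complex rides with polymerase and is needed for histone marks of transcribed genes, and ELL2 belongs to the super elongation complex that carries P-TEFb. The genes studied here thus encode factors that act beside CDK9.

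RefSeq start sites (GRCh38.p14) were found for 8 of the 10 genes, in 9 windows of 250 bases that end at the start; CDC73 and ELL2 had no entry. SUPT16H, a FACT gene, fell less with each compound than PAF1, CTR9 and LEO1, which each fell further than the median gene. With NVP-2 its own change was -0.23 from the median gene. The windows of these genes are shown. Each runs 5′ to 3′ on the gene's strand, with matches on either strand to the CCAAT box (CCAAT), the GC box (GGGCGG), the TATA box (TATAAA), an ETS motif (CCGGAAG) and the E-box (CACGTG) in capitals.
PAF1: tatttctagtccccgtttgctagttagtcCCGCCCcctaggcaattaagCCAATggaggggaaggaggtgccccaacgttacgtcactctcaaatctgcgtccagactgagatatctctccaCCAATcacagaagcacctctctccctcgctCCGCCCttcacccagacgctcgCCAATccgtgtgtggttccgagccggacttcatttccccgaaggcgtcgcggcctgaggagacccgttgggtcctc
CTR9: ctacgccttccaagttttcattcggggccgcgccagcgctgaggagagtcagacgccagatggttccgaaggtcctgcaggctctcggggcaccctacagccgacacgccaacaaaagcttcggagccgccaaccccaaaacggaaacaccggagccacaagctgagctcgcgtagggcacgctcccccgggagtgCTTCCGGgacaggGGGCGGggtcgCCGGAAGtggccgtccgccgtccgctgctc
LEO1: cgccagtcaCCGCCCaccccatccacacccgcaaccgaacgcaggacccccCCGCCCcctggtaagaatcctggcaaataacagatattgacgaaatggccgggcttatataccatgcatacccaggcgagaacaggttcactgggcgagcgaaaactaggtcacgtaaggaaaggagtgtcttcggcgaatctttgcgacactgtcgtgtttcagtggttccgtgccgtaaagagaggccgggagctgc
SUPT16H: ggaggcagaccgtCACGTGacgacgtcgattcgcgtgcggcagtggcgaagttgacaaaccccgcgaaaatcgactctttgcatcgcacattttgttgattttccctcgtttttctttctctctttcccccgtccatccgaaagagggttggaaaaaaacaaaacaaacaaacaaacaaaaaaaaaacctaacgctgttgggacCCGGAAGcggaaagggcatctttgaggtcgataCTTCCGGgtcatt
The PAF1 window (chr19:39391107-39391356, minus strand) holds 3 CCAAT boxes and 2 GC boxes. In the CTR9 window (chr11:10750996-10751245, plus strand) there are 2 ETS motifs with 1 GC box between them. The LEO1 window (chr15:51971779-51972028, minus strand) has 2 GC boxes. The SUPT16H window (chr14:21384020-21384269, minus strand) has 2 ETS motifs and 1 E-box. Among the windows not shown, that of SUPT4H1 holds 5 GC boxes and 2 ETS motifs. The SUPT6H window and each of the 2 SUPT5H windows hold 1 GC box, and the SSRP1 window holds no match. None of the 9 windows has a TATA box match, and no match overlaps another. Of 35116 RefSeq windows of the same length, 32.0% hold the CCAAT box, 42.6% the GC box, 10.7% the TATA box, 8.52% the ETS motif and 6.34% the E-box. A match describes the letters only.

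Levels are given in FPKM, which is per transcript length, on the deposited scale. On that scale 31 spike-in RNAs (ERCC), added at cell lysis, had median changes from the DMSO mean between -0.031 and 0.039 (log2). The median ERCC level of a library lay between -0.32 and 0.23 of the DMSO mean, both ends in DMSO libraries, so equal ERCC medians were tried as an alternative. The median tested gene changed by -1.92 ± 0.35, -1.90 ± 0.087 and -2.54 ± 0.081 from DMSO (log2, SD, n = 3). Library 1 of SNS-032 stood apart, at -2.32 against -1.68 and -1.77 in the other two. All 8 T-lineage markers were above 1 FPKM in DMSO (CD3D 2045 FPKM), and 9 of 12 markers of other lineages stayed under 1 FPKM in every library; CD79A was at 9.07 FPKM in DMSO. The summed level of these 12 was 10.9 to 12.2 FPKM in DMSO, 4.84 to 9.59 FPKM with SNS-032, 9.43 to 11.04 FPKM with THAL-SNS-032 and 3.93 to 4.42 FPKM with NVP-2, with MS4A1 and KRT19 among the lowest. CD14 averaged 2.08 FPKM with SNS-032 and 1.63 FPKM with THAL-SNS-032, where LYZ was at 1.44 FPKM, and their part in the results was not tested. Read depth is unknown.

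In DMSO the FACT transcripts led, SSRP1 at 422 ± 52.3 FPKM (SD, n = 3) and SUPT16H at 251 ± 23.3 FPKM, followed by SUPT4H1 at 163 ± 16.1 FPKM. SUPT5H, PAF1, SUPT6H and LEO1, in falling order from 97.6 to 77.4 FPKM, overlapped with their neighbours. CTR9 (62.0 FPKM) and CDC73 (27.8 FPKM) lay below them without overlap, and ELL2 was far lower at 0.205 FPKM. With every compound the 5 DSIF, SPT6 and FACT transcripts held the upper 5 places and the 4 PAF1 complex transcripts the next 4, whereas in DMSO PAF1 stood above SUPT6H and both ranges overlapped. With NVP-2 the lowest of the upper 5, SUPT6H at 12.8 FPKM, was above the highest PAF1 complex transcript, CDC73 at 2.36 FPKM, in every library.

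**Figure D1:**
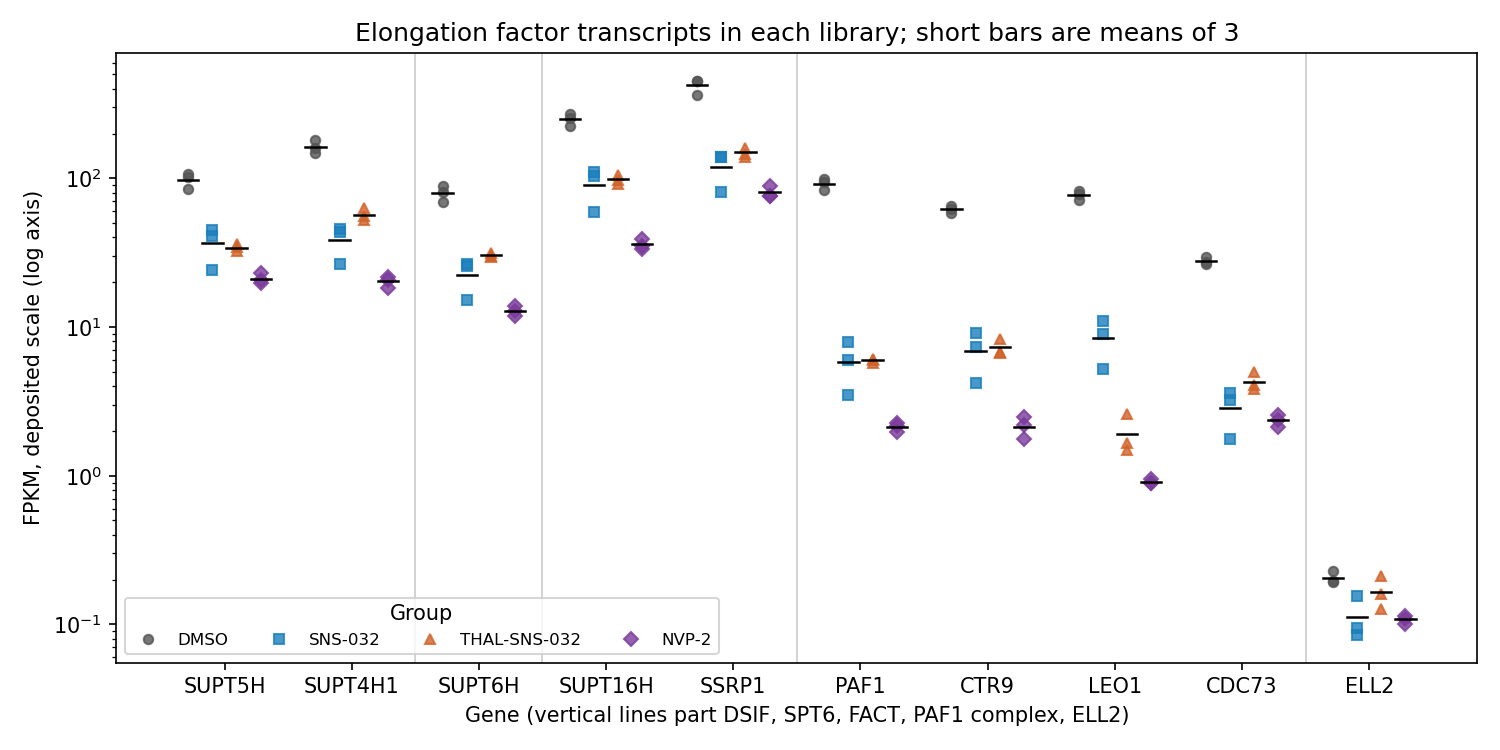
Level of each transcript in every library (FPKM, log axis) for DMSO (circles), SNS-032 (squares), THAL-SNS-032 (triangles) and NVP-2 (diamonds), with short bars for the means of 3 libraries. DMSO libraries lie above all treated libraries for the 9 genes other than ELL2, and PAF1, CTR9, LEO1 and CDC73 drop to between 0.889 and 11.03 FPKM on this deposited scale.

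The comparison of each compound with DMSO asks how the treatment altered the transcripts by 6 h. All 9 tested members were lower with each compound on the deposited scale (limma, adjusted p under 0.05 in the fit over all genes), a direction that turned for 5 of them after median-centring, but so were 94.6%, 94.8% and 97.1% of the 11381 tested genes, while 1.54%, 1.37% and 0.448% were higher. All 9 also had treated libraries that lay below every DMSO library, as did 94.8%, 95.9% and 97.8% of tested genes. These counts are therefore near the background, and the distance of a member from the median gene is given beside its change. Cells were counted before RNA isolation, per the labels, but the number that went into each library is not given in the sources used here, so fewer cells and less RNA per cell cannot be told apart in these bulk values. When each library was centred on its own median, 31.1%, 29.2% and 28.1% of genes were lower and 52.6%, 57.2% and 59.7% higher. On that scale the 5 DSIF, SPT6 and FACT genes lay above DMSO and the 4 PAF1 complex genes still below it with every compound. Treated library medians had fallen further than the median gene (-2.61 against -2.32 in the first SNS-032 library). A gene above DMSO on that scale can thus lie below the median gene, as SUPT4H1 did with SNS-032 or NVP-2 and SUPT16H with NVP-2.

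The DSIF pair was lower with each compound on the deposited scale and above DMSO after median-centring. SUPT5H, the large subunit and a CDK9 substrate, read 84.4, 102 and 106 FPKM in DMSO, 24.3, 44.6 and 40.8 FPKM with SNS-032, 32.2, 36.2 and 34.3 FPKM with THAL-SNS-032 and 19.8, 23.2 and 20.6 FPKM with NVP-2. Each treated library was below each DMSO library, and the first SNS-032 library was below its group. Its mean log2(FPKM + 1) changed by -1.43 (SE 0.21, adjusted p = 7.3e-06), -1.48 and -2.15, and by 0.74, 0.78 and 0.81 after median-centring. SUPT5H stood 0.49, 0.42 and 0.39 above the median gene.

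SUPT4H1, the small zinc-finger partner, read 148, 160.0 and 179.7 FPKM in DMSO and 26.5, 45.7 and 43.6 FPKM with SNS-032. Its values were 52.4, 62.8 and 55.8 FPKM with THAL-SNS-032 and 18.4, 21.7 and 20.7 FPKM with NVP-2. THAL-SNS-032 left the most and NVP-2 the least, and the 4 groups did not overlap. Its changes were -2.08 (SE 0.20, limma adjusted p = 8.1e-08), -1.49 and -2.94 on the deposited scale. After median-centring they were 0.090, 0.76 and 0.018, the last and the first of these not called. Set against the median gene SUPT4H1 was at -0.16, 0.41 and -0.40. SUPT4H1 has 2 named pseudogenes, neither of them in the table, so how their reads were assigned is not known.

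SUPT6H encodes SPT6, which binds polymerase and histones. Its level was 69.8, 80.4 and 88.4 FPKM in DMSO, 15.2, 26.3 and 25.7 FPKM with SNS-032, 29.5, 31.7 and 29.8 FPKM with THAL-SNS-032 and 11.9, 13.8 and 12.7 FPKM with NVP-2. The THAL-SNS-032 libraries lay above all SNS-032 libraries and the NVP-2 libraries below them. The transcript kept 28.2%, 38.1% and 16.1% of its DMSO mean. Its changes were -1.81, -1.36 (adjusted p = 7.5e-06) and -2.54 on the deposited scale and 0.36, 0.90 and 0.42 after median-centring. With NVP-2 its change was that of the median gene, with 50.04% of tested genes below it.

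The FACT transcripts stayed the most abundant members with every compound. SUPT16H, the larger FACT subunit, read 226, 255 and 272 FPKM in DMSO, 59.7, 109.6 and 103 FPKM with SNS-032, 92.1, 105 and 97.7 FPKM with THAL-SNS-032 and 33.6, 39.3 and 35.2 FPKM with NVP-2. SNS-032 and THAL-SNS-032 libraries overlapped, and NVP-2 libraries were the lowest. SUPT16H kept 36.1%, 39.1% and 14.3% of its DMSO mean, changes of -1.50, -1.34 (adjusted p = 1.8e-05) and -2.77 that turned to 0.67, 0.91 and 0.19 after median-centring. It has 1 named pseudogene, which is not in the table.

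SSRP1, the FACT subunit with an HMG box, read 362, 453 and 451 FPKM in DMSO and 81.0, 139 and 139 FPKM with SNS-032. Its values were 139.9, 161 and 147 FPKM with THAL-SNS-032 and 75.7, 89.0 and 76.4 FPKM with NVP-2. The NVP-2 range overlapped that of SNS-032 through the first SNS-032 library. SSRP1 kept 28.4%, 35.4% and 19.05% of its DMSO mean, changes of -1.84, -1.49 and -2.37 that became 0.33, 0.77 and 0.59 after median-centring.

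The transcripts of PAF1, CTR9, LEO1 and CDC73 fell further than the median gene with each compound, whereas that of WDR61, another subunit of the complex described with the other elongation genes, did not. The 4 were lower than DMSO and past the threshold under every scale and left-out library that was tried. PAF1, the subunit that names the complex, read 83.5, 94.1 and 98.5 FPKM in DMSO, 3.49, 7.90 and 5.97 FPKM with SNS-032, 5.71, 6.04 and 6.13 FPKM with THAL-SNS-032 and 1.97, 2.25 and 2.16 FPKM with NVP-2. The highest treated library, the second of SNS-032, was far below the lowest DMSO library. PAF1 kept 6.29%, 6.48% and 2.31% of its DMSO mean and changed by -3.83 (SE 0.20, adjusted p = 1.7e-10), -3.74 and -4.89, which set against the median gene is -1.91, -1.84 and -2.35. A lower change than that of PAF1 was found for 2.09%, 4.16% and 2.32% of tested genes.

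CTR9, the large repeat protein that scaffolds the complex, read 58.6, 61.9 and 65.5 FPKM in DMSO, 4.23, 9.11 and 7.36 FPKM with SNS-032, 6.72, 8.35 and 6.79 FPKM with THAL-SNS-032 and 1.76, 2.47 and 2.20 FPKM with NVP-2. It followed PAF1 in its order of groups, with SNS-032 and THAL-SNS-032 overlapping and NVP-2 lowest. CTR9 kept 11.1%, 11.8% and 3.45% of its DMSO mean, and its changes were -3.05, -2.93 and -4.33, or -1.13, -1.03 and -1.79 from the median gene.

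LEO1, which pairs with PAF1 in the complex, differed most of the 9 tested members between SNS-032 and either other compound on the deposited scale. In log2(FPKM + 1), which understates changes of low genes, it differed least between NVP-2 and THAL-SNS-032. By ratio of means, which ran from 0.294 (CTR9) to 0.619 (SUPT5H) there, LEO1 was at 0.474. It read 71.7, 78.8 and 81.8 FPKM in DMSO, 5.23, 11.03 and 9.001 FPKM with SNS-032, 1.498, 2.59 and 1.66 FPKM with THAL-SNS-032 and 0.889, 0.946 and 0.889 FPKM with NVP-2. The 4 groups did not overlap. LEO1 kept 10.9%, 2.47% and 1.17% of its DMSO mean. Its changes of -3.11, -4.77 (adjusted p = 3.8e-11) and -5.36 had 8.69%, 0.615% and 0.879% of tested genes below them.

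CDC73, whose product parafibromin is a tumor suppressor, read 27.4, 26.5 and 29.6 FPKM in DMSO, 1.75, 3.59 and 3.23 FPKM with SNS-032, 4.09, 4.98 and 3.81 FPKM with THAL-SNS-032 and 2.13, 2.56 and 2.37 FPKM with NVP-2. By its mean it was the least abundant of the complex in DMSO and with SNS-032, but not with THAL-SNS-032 or NVP-2, where LEO1 was lower. The NVP-2 range lay inside that of SNS-032. CDC73 kept 10.3%, 15.4% and 8.46% of its DMSO mean. Its log2(FPKM + 1) changes of -2.93, -2.45 and -3.10 were the nearest of the 4 to the median gene. They lay at -1.01, -0.55 and -0.57 from it. By percent kept this order did not hold with SNS-032, where CTR9 kept 11.1% and LEO1 10.9%.

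**Figure D2:**
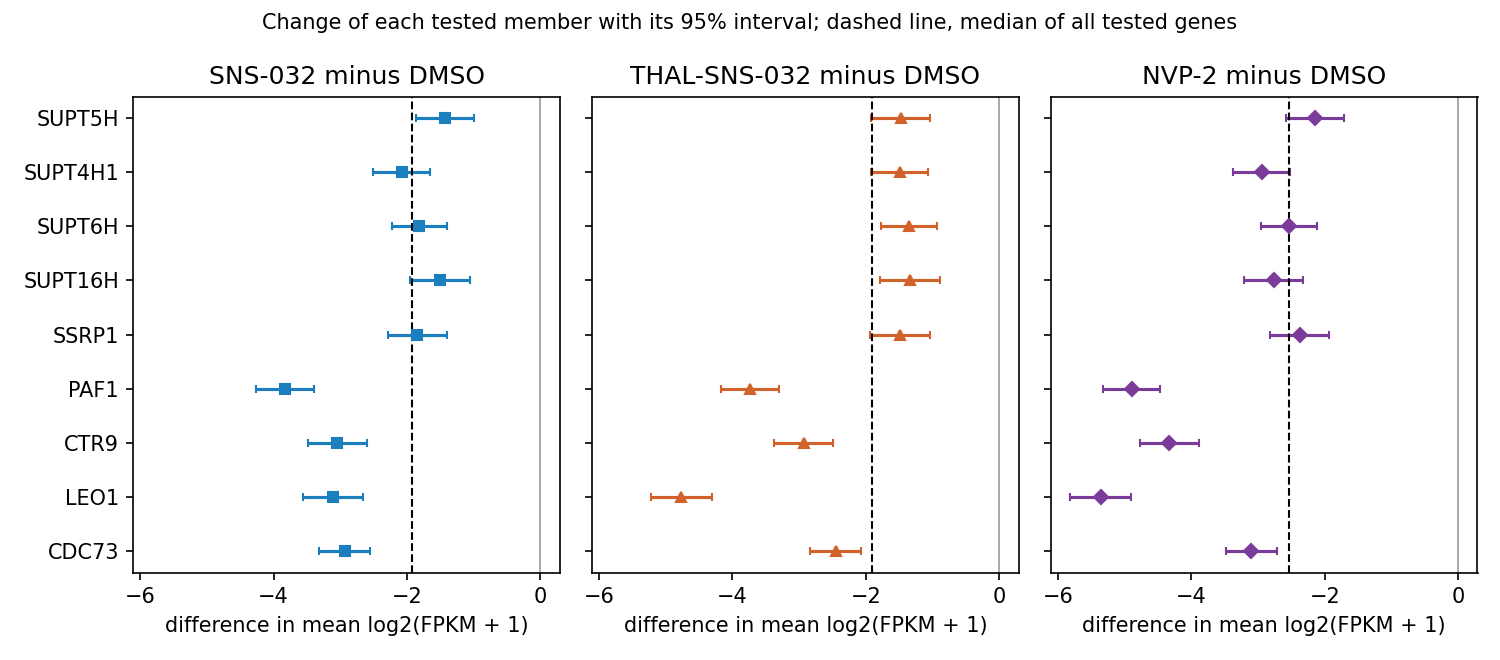
Difference in mean log2(FPKM + 1), compound minus DMSO on the deposited scale, for the 9 tested members with 95% intervals, and the median of all tested genes (dashed). PAF1, CTR9, LEO1 and CDC73 lie below the dashed line in each panel with their whole intervals, and the other 5 genes lie near or above it; those 5 turn positive when libraries are centred on their medians.

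ELL2 was at the edge of detection. It read 0.196, 0.192 and 0.229 FPKM in DMSO, 0.0850, 0.155 and 0.0947 FPKM with SNS-032, 0.161, 0.210 and 0.127 FPKM with THAL-SNS-032 and 0.101, 0.108 and 0.115 FPKM with NVP-2. In each library 4199 genes shared 1 low value, between 0.0910 and 0.104 FPKM. The ELL2 readings lie near it, and those of the first and last SNS-032 libraries below it, so it is no strict lower limit. The gene has 4 named pseudogenes, none of them listed in the deposited values, so how their reads were assigned is not known. ELL2 missed the minimum mean of 1 FPKM. With no minimum, its log2(FPKM + 1) changed by -0.12 with SNS-032 (limma adjusted p = 0.0040), -0.05 with THAL-SNS-032 (adjusted p = 0.18) and -0.12 with NVP-2 (adjusted p = 0.0030), where the scale leaves little room for a larger value. ELL, its paralog, read 14.4 ± 0.387 FPKM in DMSO, 9.99 ± 3.41 FPKM with SNS-032, 3.10 ± 0.270 FPKM with THAL-SNS-032 and 1.62 ± 0.202 FPKM with NVP-2 (SD, n = 3). ELL was thus the more abundant of the pair in every group, and its changes were -0.54 (SE 0.19, adjusted p = 0.015), -1.91 and -2.56.

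The difference between the 4 PAF1 complex members and the 5 DSIF, SPT6 and FACT members was also present in ratios within libraries. Such a ratio is free of scaling only if 1 factor per library was used. How libraries were scaled is not given. WDR61, RTF1 and IWS1 are not in the ratio used here. The geometric mean of the 4 PAF1 complex transcripts over that of the 5 DSIF, SPT6 and FACT transcripts, as a percent of its DMSO mean, was 106, 97.0 and 97.0 in DMSO. It was 28.1, 34.1 and 29.2 with SNS-032, 19.2, 21.8 and 18.8 with THAL-SNS-032 and 17.7, 18.1 and 18.6 with NVP-2. The SNS-032 libraries, the first included, lay above all THAL-SNS-032 libraries, and these above all NVP-2 libraries. Against the median gene, 4 of 4 PAF1 complex genes were lower with each compound, and of the other 5 genes 1, 0 and 2 were lower. With the median change taken as zero, a scale added after the data were seen, the same 4 genes were called lower each time, together with SUPT4H1 with SNS-032 (-0.16) and SUPT4H1 and SUPT16H with NVP-2 (-0.40 and -0.23). That stands beside 41.5%, 41.9% and 42.7% of all tested genes called lower and 40.9%, 41.9% and 42.4% called higher.

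**Figure D3:**
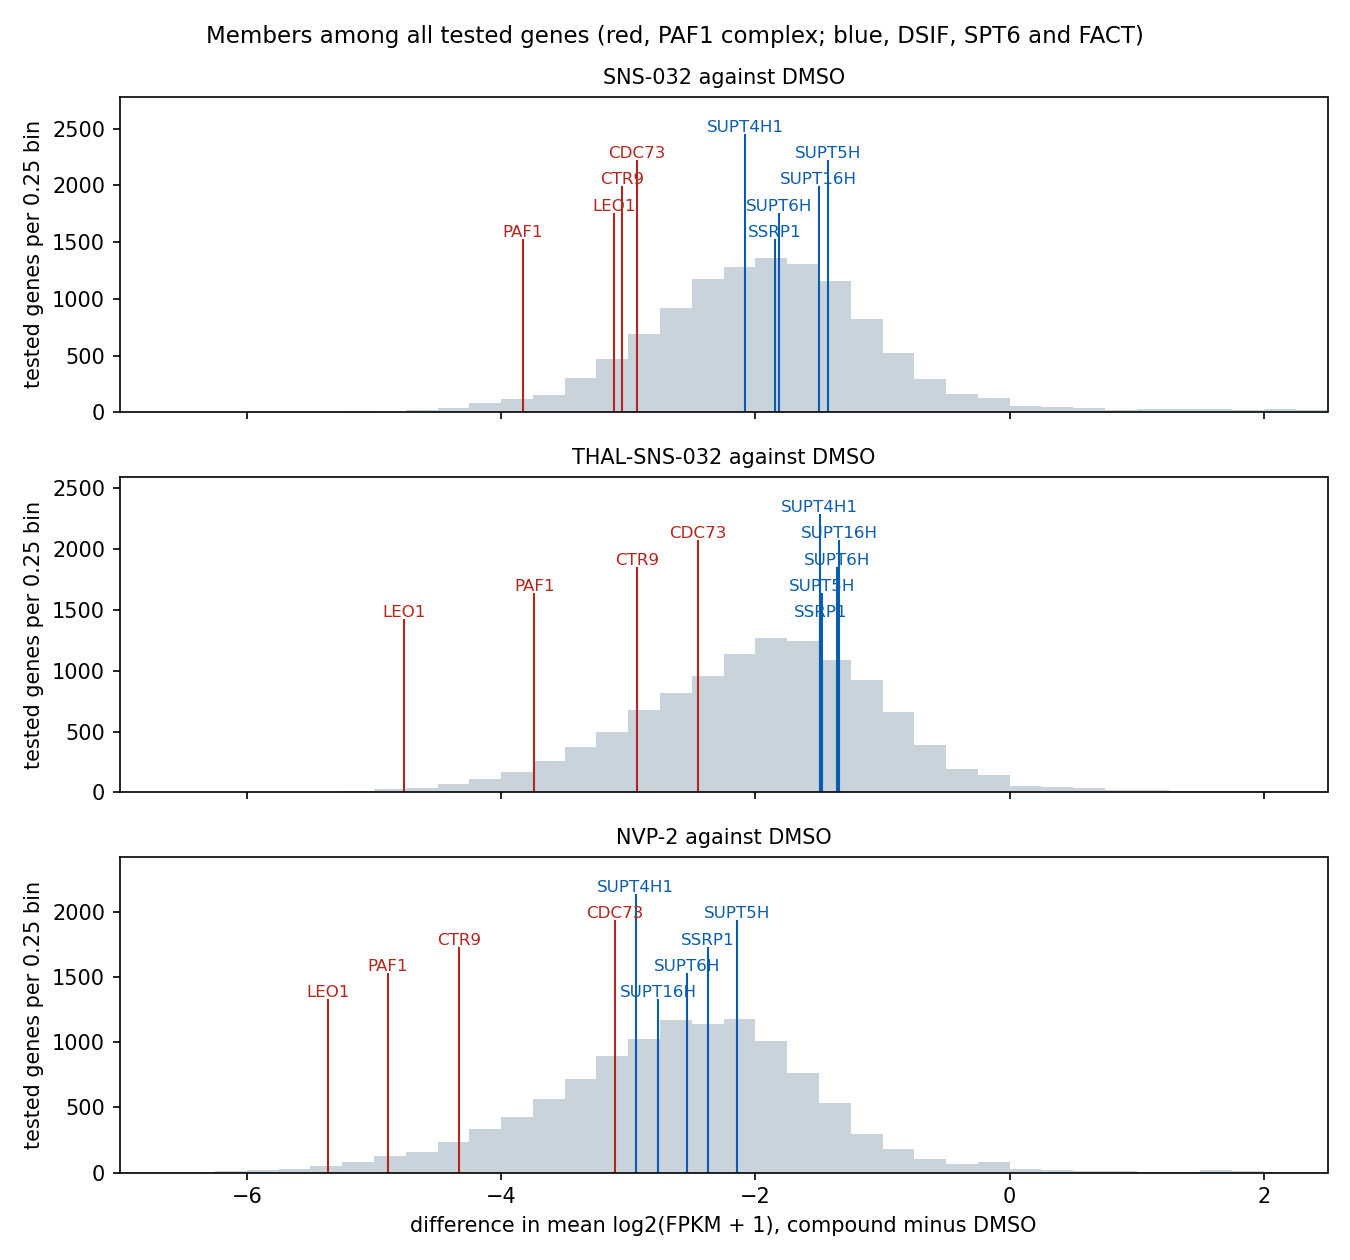
Histograms of the change from DMSO of the 11381 tested genes on the deposited scale (tested genes per bin of 0.25 log2 units). The axis runs from -7 to 2.5, and the few genes beyond it are not drawn. The 9 tested members are lines, red for the PAF1 complex and blue for DSIF, SPT6 and FACT. The red lines are left of the peak in each panel, LEO1 furthest with THAL-SNS-032 and NVP-2, and the blue lines stand in the bulk, which lies above DMSO when libraries are centred on their medians.

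Partner transcripts kept unequal shares of their DMSO levels, so their ratios within a library differed between groups. Among 18 comparisons of a ratio with DMSO, 6 ratios by 3 compounds, 17 had groups that did not overlap, each with an exact two-sided permutation p of 0.1, the smallest that 3 against 3 libraries allow (Benjamini-Hochberg adjusted 0.11). Of all pairs of tested genes, 82.4%, 84.8% and 84.9% had ratios that did not overlap with DMSO, so most pairs separate the groups. Leaving out ELL2 to ELL, whose numerator is near the shared low value, 14 of 15 did not overlap. The 3 compounds share the DMSO libraries. SUPT5H to SUPT4H1 ranged from 0.571 to 0.638 in DMSO, from 0.918 to 0.977 with SNS-032 and from 0.993 to 1.08 with NVP-2, near equal levels. With THAL-SNS-032 it ranged from 0.576 to 0.615, inside the DMSO range (exact permutation p = 0.90).

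The FACT ratio of SUPT16H to SSRP1 lay above DMSO with SNS-032 or THAL-SNS-032 and below it with NVP-2. It was 0.563 to 0.625 in DMSO, 0.737 to 0.787 with SNS-032, 0.652 to 0.666 with THAL-SNS-032 and 0.442 to 0.460 with NVP-2. Within the PAF1 complex, CTR9 to PAF1 was 0.658 to 0.702 in DMSO, 1.15 to 1.23 with SNS-032, 1.11 to 1.38 with THAL-SNS-032 and 0.891 to 1.09 with NVP-2. CDC73 to PAF1 was 0.282 to 0.328 in DMSO, 0.455 to 0.542 with SNS-032, 0.621 to 0.825 with THAL-SNS-032 and 1.08 to 1.14 with NVP-2. In both ratios every treated library lay above every DMSO library, and PAF1 kept the smallest share of the 3 transcripts.

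LEO1 to PAF1 lay on opposite sides of DMSO. It was 0.831 to 0.858 in DMSO, 1.40 to 1.51 with SNS-032, 0.262 to 0.429 with THAL-SNS-032 and 0.412 to 0.451 with NVP-2. Between the compounds themselves, a comparison added after the data were seen, 15 of 18 ratios did not overlap (exact permutation p = 0.1 each, adjusted 0.12), and 13 of 15 without ELL2 to ELL. Among all pairs of tested genes the share was 69.4% for THAL-SNS-032 against SNS-032, 74.0% for NVP-2 against SNS-032 and 69.2% for NVP-2 against THAL-SNS-032. The log2 ratio of LEO1 to PAF1 differed by -2.23 between THAL-SNS-032 and SNS-032, and that of SUPT5H to SUPT4H1 by -0.65. The 3 that overlapped were CTR9 to PAF1 between SNS-032 and THAL-SNS-032, and LEO1 to PAF1 and ELL2 to ELL between THAL-SNS-032 and NVP-2.

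**Figure D4:**
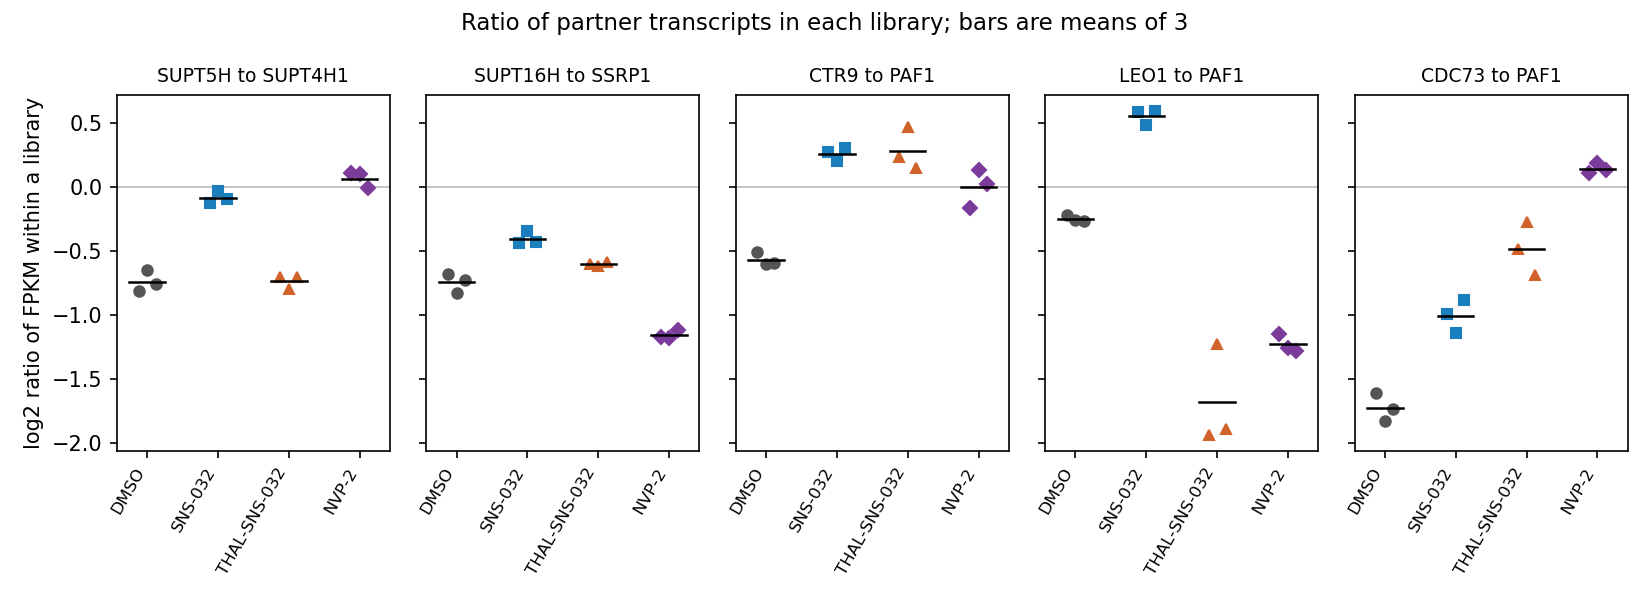
Log2 ratio of FPKM between partner transcripts within each library, in DMSO and with the 3 compounds, with bars for means of 3 libraries. LEO1 to PAF1 lies above DMSO with SNS-032 and below it with THAL-SNS-032 and NVP-2, and SUPT5H to SUPT4H1 overlaps DMSO with THAL-SNS-032 alone among the compounds.

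All compounds were used at 250 nM for 6 h, and the levels were set against each other at that dose. Whether equal doses act equally strongly was not tested. THAL-SNS-032 carries a cereblon-binding group joined to SNS-032, and the part of that group in any difference was not tested. On the deposited scale 2 of the 9 tested members differed between THAL-SNS-032 and SNS-032. LEO1 was lower with THAL-SNS-032 (-1.66, SE 0.21, limma adjusted p = 3.8e-05) and SUPT4H1 higher (0.59, SE 0.20, adjusted p = 0.038). After median-centring 8 members were called, 1 lower and 7 higher, and with the median change taken as zero 5, 1 lower and 4 higher. Over all tested genes 16.7% were lower and 13.4% higher, 23.1% and 51.2% after median-centring, and 27.1% and 42.0% with the median change taken as zero. These were 1900 and 1525 genes on the deposited scale and 1389 and 344 with equal ERCC medians. The SUPT4H1 call was lost with equal ERCC medians (adjusted p = 0.20), with no minimum level (0.066), in a fit of the 6 libraries of the pair (0.15) and without the second DMSO library or any 1 library of THAL-SNS-032 or NVP-2. The LEO1 call held under every setting tried.

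For 7 of the 9 members the 95% interval of THAL-SNS-032 minus SNS-032 lay within 2-fold, as it did for 76.9% of tested genes. The difference was -0.05 (interval -0.49 to 0.39) for SUPT5H, 0.16 (-0.29 to 0.61) for SUPT16H, 0.36 (-0.09 to 0.80) for SSRP1, 0.09 (-0.34 to 0.52) for PAF1 and 0.12 (-0.33 to 0.56) for CTR9. All of these intervals use 1 spread pooled over the 4 groups. The SNS-032 libraries varied more (SD of the median change 0.35, against 0.087 with THAL-SNS-032), so the intervals may be too narrow for this pair. SUPT6H (0.46, adjusted p = 0.089) and CDC73 (0.48, adjusted p = 0.054) did not pass, although their groups did not overlap. In all, 4 members were higher and 1 lower without overlap, beside 25.5% and 15.9% of tested genes. Without the first SNS-032 library SUPT16H, PAF1 and CTR9 turned to -0.11, -0.18 and -0.16, none of them called, and SUPT5H became -0.31 (adjusted p = 0.043).

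NVP-2 left less of most members than SNS-032 did on the deposited scale, though 4 of the 9 lay above SNS-032 after median-centring. On the deposited scale 8 of 9 were lower, beside 52.6% of all tested genes lower and 0.782% higher: LEO1 at -2.25 (adjusted p = 5.8e-07), CTR9 at -1.28, SUPT16H at -1.26, PAF1 at -1.06, SUPT4H1 at -0.86, SUPT6H and SUPT5H at -0.72 each and SSRP1 at -0.53 (adjusted p = 0.044). CDC73 differed by -0.17 (interval -0.55 to 0.21, adjusted p = 0.44), but by -0.40 (adjusted p = 0.0040) without the first SNS-032 library. After median-centring, when 24.8% of genes were lower and 58.9% higher, SUPT5H, SUPT6H, SSRP1 and CDC73 were above SNS-032, by 0.073, 0.065, 0.26 and 0.62. The SSRP1 call was lost with a pseudocount of 5 (adjusted p = 0.053), no minimum level (0.082), equal ERCC medians (0.095) or the 6 libraries of the pair (0.14), and without any 1 library other than the first of DMSO or of SNS-032.

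Against THAL-SNS-032, 9 of 9 members were lower with NVP-2 on the deposited scale (3 lay above it after median-centring), beside 70.0% of all tested genes lower and 0.993% higher, from -1.45 for SUPT4H1 (adjusted p = 6.0e-05) to -0.59 for LEO1 (adjusted p = 0.022). SUPT16H (-1.42), CTR9 (-1.40), SUPT6H (-1.18) and PAF1 (-1.15) were nearest to SUPT4H1. After median-centring, when 29.4% of genes were lower and 38.0% higher, SUPT5H, LEO1 and CDC73 lay above THAL-SNS-032 by 0.035, 0.11 and 0.051, none of them called. The LEO1 call was lost with a pseudocount of 5 (adjusted p = 0.17), no minimum level (0.061) or equal ERCC medians (0.054). It was also lost without the second THAL-SNS-032 library (adjusted p = 0.11) and without the first or the last NVP-2 library (adjusted p = 0.056 and 0.055).

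All 35 other elongation genes listed by role were tested. On the deposited scale 35 were lower than in DMSO with each compound, beside 94.6%, 94.8% and 97.1% of all tested genes. The median changes of the 35 were -1.91, -1.97 and -2.88, beside -1.92, -1.90 and -2.54 for all tested genes. After median-centring 14, 15 and 15 of the 35 were called lower, beside 31.1%, 29.2% and 28.1% of all tested genes. On that scale 19, 19 and 16 were called higher, beside 52.6%, 57.2% and 59.7%. The partners of the same complexes did not share 1 level of change. WDR61, a PAF1 complex subunit that also serves in RNA decay, read 177 ± 8.53 FPKM in DMSO and 49.0 ± 13.1, 65.4 ± 4.23 and 30.1 ± 3.31 FPKM with the compounds (SD, n = 3). It kept 27.7%, 36.9% and 16.9% of its DMSO mean, where SUPT6H kept 28.2%, 38.1% and 16.1%. RTF1, which helps bring about histone H2B ubiquitination, kept 17.3%, 16.7% and 7.01%; it is named outside the rule for this list, after its values were seen.

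IWS1, the partner of SPT6, had the largest fall of the list in log2(FPKM + 1) with each compound. It went from 83.0 ± 5.73 FPKM in DMSO to 3.05 ± 1.16, 1.94 ± 0.0683 and 0.844 ± 0.0996 FPKM, changes of -4.42, -4.83 and -5.51, while SUPT6H changed by -1.81, -1.36 and -2.54. EAF2, an ELL partner, changed by -4.14 with SNS-032 and -4.42 with THAL-SNS-032. It kept 3.32% and 2.32% of its DMSO mean with these compounds, where IWS1 kept 3.67% and 2.34%. ASF1A, a histone chaperone, changed by -3.43 with SNS-032 and -4.89 with NVP-2, and CHD1, a chromatin remodeler of transcribed genes, by -4.12 with NVP-2 and -3.74 with THAL-SNS-032. The most abundant of each remaining role were NELFCD (-1.91, -1.66 and -2.26), MLLT1 (-1.92, -1.85 and -3.21), elongin B or TCEB2 (-0.66, -0.56 and -1.30), UBE2A (-1.82, -1.46 and -2.52) and HTATSF1 (-1.73, -1.48 and -2.23). With the median change taken as zero TCEB2 was at 1.27, 1.34 and 1.24, and IWS1 still at -2.49, -2.93 and -2.97.

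Between THAL-SNS-032 and SNS-032, 3 of the 35 genes were higher, 9 lower and 23 not called on the deposited scale, where 13.4% of all tested genes were higher and 16.7% lower. After median-centring 14 were higher and 13 lower, beside 51.2% and 23.1% of all tested genes. The largest falls were those of SPTY2D1 (-1.93), which encodes a histone chaperone, elongin A or TCEB3 (-1.41) and ELL (-1.37, adjusted p = 9.5e-05), and the 3 rises were ASF1B (0.78), the H3K79 methyltransferase gene DOT1L (0.73) and NELFE (0.56, adjusted p = 0.043). On the deposited scale NVP-2 left 25 lower, 1 higher and 9 not called against SNS-032, beside 52.6% of tested genes lower and 0.782% higher. TCEB3 was at -2.94, SPTY2D1 at -2.51 and KIAA0947 (ICE1) at -2.20, with EAF2 at 0.41. After median-centring 14 of the 35 were higher and 17 lower, beside 58.9% and 24.8% of tested genes. Against THAL-SNS-032 NVP-2 left 27 lower, 1 higher and 7 not called on the deposited scale, beside 70.0% of tested genes lower and 0.993% higher. KIAA0947 at -1.75, TCEB3 at -1.53 and MLLT1 at -1.36 led, with EAF2 at 0.69. After median-centring 10 of the 35 were higher and 15 lower, beside 38.0% and 29.4% of tested genes. SUPT20H, which shares the SPT name but belongs to the coactivator SAGA, read 62.7 ± 5.35 FPKM in DMSO, 5.59 ± 1.33 FPKM with SNS-032, 13.7 ± 0.262 FPKM with THAL-SNS-032 and 6.83 ± 0.372 FPKM with NVP-2.

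The members were not each other's closest match. Over the 12 libraries, with library medians removed, the tested gene most like a member by Pearson's r was MTRNR2L2 for SUPT5H (0.996), PPP1R18 for SUPT4H1 (0.992), CNBP for SUPT16H (0.995), HNRNPA1L2 for SSRP1 (0.997), SMC3 for PAF1 (0.995), TRMT10C for CTR9 (0.996), LTV1 for LEO1 (0.998) and ANAPC4 for CDC73 (0.989). ELL2, at its low level, was most like XPNPEP2, FARP1 and GSTM5. MTRNR2L2 and HNRNPA1L2 resemble other expressed genes in sequence, so their own levels are uncertain. With 4 groups that differ widely such values are high for many genes, and 0 members were among the 20 genes most like any member.

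Members differ in gene length and place. In GENCODE 29 (GRCh38) PAF1 spans 5.34 kb and CDC73 133 kb, the shortest and longest of the 10, and both fell further than the median gene; LEO1 and SUPT16H, at 33.8 and 32.8 kb, kept 1.17% and 14.3% of their DMSO means with NVP-2. The median span of tested genes was 29.1 kb. PAF1 and SUPT5H lie on chromosome 19 with 4 protein-coding genes between them (MED29, ZFP36, PLEKHG2 and RPS16), and they kept 6.29% and 37.5% of their DMSO means with SNS-032. The part of gene length or place in the changes of the members was not tested.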

How the data were processed

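Poly(A)-selected, stranded RNA sequencing was done on 12 libraries, 3 per group, from counted cells with ERCC spike-ins added at lysis, per the labels' protocols. The deposited values are FPKM, which the authors computed with HISAT, Cufflinks 2.0.0 and hg19, per the submitters' processing notes; how libraries were scaled to each other is not given in the sources used here. No counts are given, so depth and counting error are unknown.

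After removal of 92 ERCC entries and 2 repeated symbols, 23619 genes were left, and 11381 with a mean of 1 FPKM or more were tested as log2(FPKM + 1). This scale understates changes of low genes. One limma 3.58.1 fit with trend in R 4.3.3, fitted over 4 groups (8 residual degrees of freedom), gave 6 comparisons, two-sided, with Benjamini-Hochberg adjustment over all tested genes and calls at 0.05. It was tested on simulated data. Ratios between partners were compared by exact two-sided permutation. The share of all pairs of tested genes with ratios that do not overlap was added after the data were seen. The 10 members and the lists were chosen with earlier results of these data known. Genes named from the list of 35 are the most abundant of each role and up to 3 called genes with the largest change each way whose groups do not overlap. Alternatives were other pseudocounts (0.1, 5), no minimum or 5 FPKM, median-centred libraries, equal ERCC medians, no trend, 6 libraries of a pair, a replicate block and each library left out; centring on the median change was added after the data were seen. Promoter windows come from RefSeq (GRCh38.p14) and spans from GENCODE 29, not the authors' build. Figures were drawn with matplotlib 3.10.9. The gene most like SUPT6H over the libraries is not reported here.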

Additional observations from a re-analysis of the deposited data

How the results depend on the processing

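Of the changes and ratios recomputed, PAF1, CTR9, LEO1 and CDC73 against DMSO kept direction and call in all 264 values (4 genes, 3 compounds, 22 settings). SUPT5H, SUPT4H1, SUPT6H, SUPT16H and SSRP1 did so in all 300 values on the deposited scale or with equal ERCC medians, and in 3 of 30 with a centred scale. Median-centred libraries gave, in that order of genes, 0.74, 0.090, 0.36, 0.67 and 0.33 for SNS-032 against DMSO (members' median 0.090), 0.78, 0.76, 0.90, 0.91 and 0.77 for THAL-SNS-032 (median 0.76) and 0.81, 0.018, 0.42, 0.19 and 0.59 for NVP-2 (median 0.018). They gave 0.038 for SUPT5H in THAL-SNS-032 against SNS-032, 0.073, 0.065, 0.26 and 0.62 for SUPT5H, SUPT6H, SSRP1 and CDC73 in NVP-2 against SNS-032, and 0.035, 0.11 and 0.051 for SUPT5H, LEO1 and CDC73 in NVP-2 against THAL-SNS-032. Centred on the median change, SUPT5H, SUPT6H, SUPT16H and SSRP1 were at 0.49, 0.11, 0.42 and 0.080 for SNS-032 against DMSO. The same scale gave 0.43, 0.41, 0.55, 0.56 and 0.42 (median 0.41) for the 5 genes with THAL-SNS-032, 0.39, 0.00087 and 0.17 for SUPT5H, SUPT6H and SSRP1 with NVP-2, 0.085 and 0.44 for SSRP1 and CDC73 in NVP-2 against SNS-032, and 0.042 for LEO1 in NVP-2 against THAL-SNS-032. These turns follow from how each scale is set. Median-centring sets the library medians equal, and these had fallen further than the median gene (-2.61 against -2.32 in the first SNS-032 library). The scale centred on the median change takes the median gene as unchanged.

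The 2 members called between THAL-SNS-032 and SNS-032 became 1 with no filter, equal ERCC medians or only the 6 libraries of the pair, 8 with median-centred libraries, 5 when centred on the median change and 4 with the replicate block, and ranged from 1 to 4 with 1 library left out; the cause was not tested. Over all genes that comparison had 3425 calls, against 8451 median-centred, 7866 centred on the median change, 1733 with equal ERCC medians (1389 lower, 344 higher) and 2110 with 6 libraries (1603 lower, 507 higher). NVP-2 against SNS-032 had 6079 calls, 9525 median-centred and 4673 to 9378 with 1 library left out (9378 without the first of SNS-032), and NVP-2 against DMSO 19614 with no filter, which tests more genes. With 1 library left out, the members' median between THAL-SNS-032 and SNS-032 ranged from -0.11 to 0.32, SUPT5H from -0.31 to 0.12, SUPT16H from -0.11 to 0.32, PAF1 from -0.18 to 0.31 and CTR9 from -0.16 to 0.32, with the lowest value of each without the first SNS-032 library. SUPT5H to SUPT4H1 with THAL-SNS-032 against DMSO, 0.0060 in log2, ranged from -0.029 to 0.051, and ELL2 to ELL with SNS-032 turned to 0.42 with 1 FPKM added to both. Same-numbered libraries did not deviate together (r from -0.15 to 0.17, 1 of 18 pairs over 0.1), so the numbers were not taken as pairs, and the block otherwise changed no count by over 1.5 times. Depth is unknown, which limits every low value, ELL2 first.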
